A study of Homo sapiens with 9 samples.

Results

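The 9 genes described here belong to the transforming growth factor beta (TGF-beta) pathway: the ligands TGFB1 and TGFB2, the receptors TGFBR1 and TGFBR2, the signal transducers SMAD2 and SMAD3, the inhibitors SMAD7 and SKIL, and the induced matrix gene TGFBI. They were taken by symbol from the deposited gene table, in which each symbol had a single entry, and they are 9 of the 58735 genes listed. RNA was sequenced from SKOV3 cells, an established human ovarian cancer cell line, in 3 groups of 3 libraries. The first group expressed WT CDK9 under basal conditions, the second expressed WT CDK9 and received an ALK inhibitor for 24 h, and the third expressed Tyr19Phe CDK9, in which tyrosine 19 is replaced by phenylalanine. CDK9 is the kinase of the P-TEFb complex, which releases paused RNA polymerase II, and the study asks how ALK and the tyrosine it phosphorylates on CDK9 act on transcription. ALK is here the anaplastic lymphoma kinase, and not one of the activin receptor-like kinases, the type I receptors of the TGF-beta family that share its abbreviation.

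For these libraries the sources used here give no name or dose for the inhibitor, do not mention a vehicle for the WT CDK9 group, and do not say whether the lines were clones or pools or whether the libraries of a group came from separate cultures. P-values therefore measure the spread between these libraries, which may be technical. The ALK inhibitor group shares its CDK9 construct with the WT CDK9 group, whereas the Tyr19Phe group is a different line, so that the substitution and any other difference between the lines cannot be told apart. Earlier results of these data showed chromosome segments that differ between the Tyr19Phe and WT CDK9 cells. For that reason the values of neighbouring genes are given beside some genes below.

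TGF-beta ligands are secreted in a latent form and, once released, bind the type II receptor TGFBR2, which recruits and phosphorylates the type I receptor TGFBR1. TGFBR1 then phosphorylates SMAD2 and SMAD3, which enter the nucleus with SMAD4 and switch genes on or off together with other transcription factors. SMAD7 and SKIL are themselves induced by the pathway and restrain it, SMAD7 at the receptor and SKIL on the SMAD complexes. In carcinoma cells the pathway is known for slowing growth in some settings and for driving matrix production and epithelial to mesenchymal transition in others.

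Total counts ranged from 18169050 to 20974903 in the 6 libraries of WT CDK9 cells with and without inhibitor and from 26485891 to 29320184 in the Tyr19Phe libraries, whose median was 1.45 times that of the WT CDK9 group. ALK inhibitor replicate 2 and Tyr19Phe replicate 3 had the fewest genes detected in their groups, 19944 and 20635, against 21911 to 22744 in the other libraries of these groups. Levels are given as CPM, counts relative to the library total after scaling by TMM, the trimmed mean of M-values. CDK9 was at 48.5 ± 1.03, 45.5 ± 1.76 and 54.9 ± 3.94 CPM in the WT CDK9, ALK inhibitor and Tyr19Phe groups (mean ± SD, n = 3 each), and the counts do not separate introduced from endogenous CDK9. The CDK9 log2 fold change in Tyr19Phe cells was 0.18 ± 0.08 (SE) against WT CDK9 (adjusted p = 0.106 by edgeR's quasi-likelihood test). Against inhibitor-treated cells it was 0.27 ± 0.08 (adjusted p = 0.00961). The other tested genes near CDK9 had medians of 0.11 in both comparisons within 5 Mb, and of 0.24 and 0.22 within 2 Mb. Their part in the CDK9 values was not tested. ALK had 0 to 5 counts per library and was not tested. Of the 9 epithelial and SKOV3 markers 8 reached 1 CPM in at least 1 library, and MUC16 was under 1 CPM in all 9 libraries. The marker gene WT1 was low, at means of 1.70, 1.11 and 1.04 CPM in the WT CDK9, ALK inhibitor and Tyr19Phe groups. The 9 markers summed to 5313 to 5503 CPM in the WT CDK9 group and 5841 to 5980 CPM with inhibitor. In the Tyr19Phe group they summed to 5159 to 5352 CPM. All 6 leukocyte markers and 6 of 7 fibroblast markers were under 1 CPM in all libraries, and the endothelial markers summed to 1.08 to 2.62 CPM in the WT CDK9 group, 1.32 to 2.04 CPM with inhibitor and 3.35 to 4.33 CPM in the Tyr19Phe group. In bulk RNA, fewer cells of a type and less RNA per cell cannot be told apart.

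The 4 members whose levels differed between Tyr19Phe and WT CDK9 cells at every setting tried were TGFB2, TGFBR2, TGFBI and SKIL, and their promoters are shown for that reason. All 9 members matched an entry of the RefSeq promoter table (GRCh38.p14), which holds 300 bases per gene, 250 before the start site and 50 after it. Printed are the 250 bases before the start and the first 10 after it, 5′ to 3′ on the gene's strand. Capitals mark the SMAD box CAGAC, a short element bound by SMAD3 and SMAD4, and the AP-1 motif TGANTCA, bound by JUN and FOS family factors that often act with SMADs, each searched on both strands.
TGFB2, chr1:218345086-218345345, plus strand: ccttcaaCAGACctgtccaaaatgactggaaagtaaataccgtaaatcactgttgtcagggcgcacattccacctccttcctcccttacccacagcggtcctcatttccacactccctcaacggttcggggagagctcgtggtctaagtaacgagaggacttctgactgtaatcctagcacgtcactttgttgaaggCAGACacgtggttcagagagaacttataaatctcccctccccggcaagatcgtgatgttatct
TGFBR2, chr3:30606351-30606610, plus strand: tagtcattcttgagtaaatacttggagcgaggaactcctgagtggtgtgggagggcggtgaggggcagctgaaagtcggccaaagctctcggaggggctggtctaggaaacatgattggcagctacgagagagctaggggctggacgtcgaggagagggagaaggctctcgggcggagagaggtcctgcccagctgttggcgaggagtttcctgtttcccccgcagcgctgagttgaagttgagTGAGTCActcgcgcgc
TGFBI, chr5:136028738-136028997, plus strand: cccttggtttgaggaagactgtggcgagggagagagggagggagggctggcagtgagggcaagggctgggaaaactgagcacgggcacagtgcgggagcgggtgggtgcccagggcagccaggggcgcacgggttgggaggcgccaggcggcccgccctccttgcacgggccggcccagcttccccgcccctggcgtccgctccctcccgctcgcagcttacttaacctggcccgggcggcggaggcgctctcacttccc
SKIL, chr3:170357465-170357724, plus strand: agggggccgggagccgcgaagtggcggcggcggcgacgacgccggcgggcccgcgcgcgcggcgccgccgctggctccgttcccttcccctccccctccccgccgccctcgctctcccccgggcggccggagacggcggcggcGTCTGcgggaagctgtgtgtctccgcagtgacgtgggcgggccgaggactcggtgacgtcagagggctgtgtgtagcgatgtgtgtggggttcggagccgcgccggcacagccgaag
TGFB2 held 2 SMAD boxes, beginning at positions -243 and -53 relative to the start, SKIL held 1 at -107, and TGFBR2 held 1 AP-1 motif that spans the start. TGFBI held neither motif in this window. Among the 9 members, 3 promoters had a SMAD box, the third being SMAD3 with 4, beside 45.3% of the 35116 promoters searched. The RefSeq windows of SMAD3 (chr15:67166281-67166580) and SMAD7 lie at start sites well inside the spans listed for these genes. The AP-1 motif was found in 1 of 9 members and in 7.71% of all promoters, and the palindromic SMAD element GTCTAGAC in 0 of 9 and in 0.202%. A match of a few letters is a description of these windows, and no factor binding was measured.

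**Figure D1:**
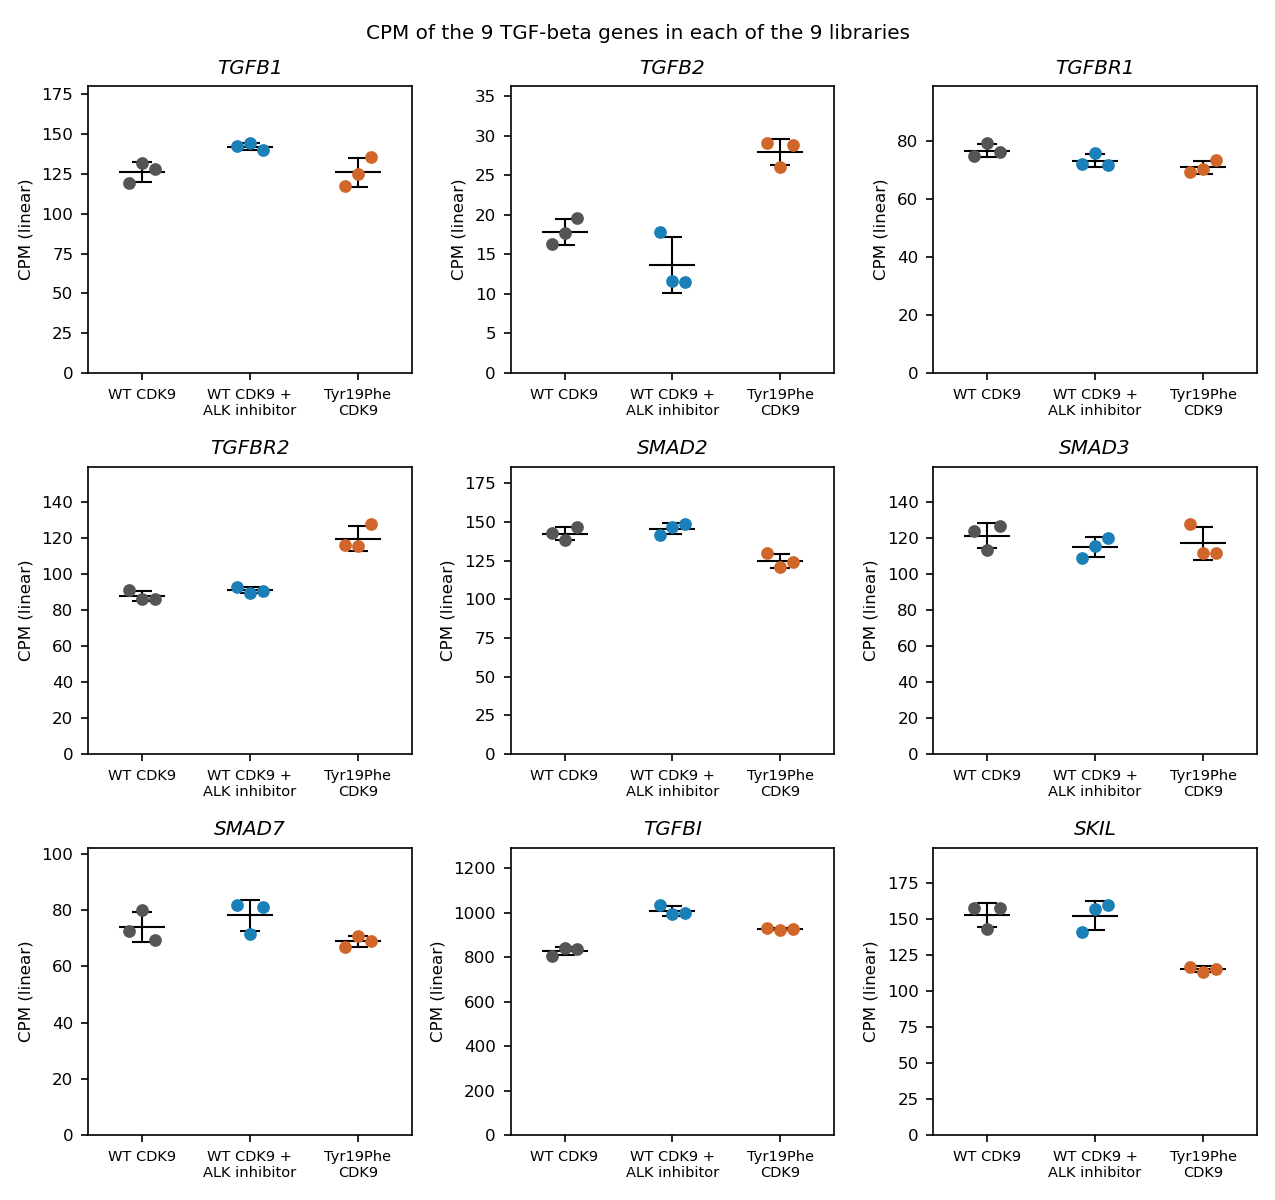
Level of each of the 9 genes in CPM (linear axis from 0) in the 3 libraries of each group, with the group mean and SD as black bars. The Tyr19Phe libraries stand above the other 6 for TGFB2 and TGFBR2 and below them for SMAD2 and SKIL, and the TGFBI libraries of the 3 groups do not overlap.

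All 9 members passed the filter on low counts and were among the 16350 genes tested, with 213 to 27522 counts per library. With the ALK inhibitor, 1 of 9 members was called higher and 0 lower at an adjusted p under 0.05, beside 1.82% of all tested genes called higher and 2.73% called lower. In Tyr19Phe against WT CDK9 cells 3 members were called higher and 2 lower, beside 7.61% and 10.4% of all genes. In Tyr19Phe cells against ALK inhibitor-treated cells 2 were called higher and 4 lower, beside 9.57% and 11.1%. With every library thinned to the total of the shallowest, 1, 5 and 6 members were called in the 3 comparisons, as at full depth. The 3 comparisons share their groups pairwise and are not independent. Log2 fold changes of the members had medians of 0.03, -0.05 and -0.12 in these comparisons, and the medians over all tested genes were -0.001, 0.0035 and 0.0018. The libraries of the compared groups did not overlap in CPM for 2, 6 and 7 of the 9 members, which was the case for 19.6%, 32.6% and 34.4% of all tested genes.

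Among the ligands, TGFB1 was the more abundant. TGFB1 (ENSG00000105329, GRCh38 chromosome 19, 41301587 to 41353911, minus strand) had 120, 132 and 128 CPM in the WT CDK9 libraries, 142, 144 and 140 CPM with the ALK inhibitor and 117, 125 and 136 CPM in the Tyr19Phe libraries. All 3 inhibitor libraries lay above the WT CDK9 and Tyr19Phe libraries, which overlapped with each other. With the inhibitor the TGFB1 log2 fold change was 0.17 ± 0.06 (SE; 95% interval 0.05 to 0.28) with an adjusted p of 0.0909 by edgeR's quasi-likelihood test, and it passed the threshold only when libraries were scaled by total count alone (adjusted p = 0.0378). TGFB1 was lower in Tyr19Phe than in inhibitor-treated cells (log2 fold change -0.18 ± 0.06, adjusted p = 0.0229). That call was lost without ALK inhibitor replicate 1 (adjusted p = 0.0578), ALK inhibitor replicate 2 (0.0726), Tyr19Phe replicate 1 (0.146) or Tyr19Phe replicate 2 (0.0651). Tyr19Phe and WT CDK9 cells differed in TGFB1 by -0.0065 ± 0.06 (95% interval -0.12 to 0.11), a value whose sign changed with the scaling. TGFB1 overlaps HNRNPUL1 and CCDC97 on the opposite strand along 11.5% and 28.1% of its span, and the strand setting of the counting is not given in the sources used here. HNRNPUL1 and CCDC97 changed by 0.13 ± 0.04 and 0.27 ± 0.08 in Tyr19Phe against inhibitor-treated cells (adjusted p = 0.0233 and 0.0188). A part of these genes in the TGFB1 values was not tested.

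TGFB2 (ENSG00000092969, chromosome 1, 218346235 to 218444619, plus strand) had the widest range of log2 fold changes among the members, -0.38 to 1.03. It was at 16.3, 17.7 and 19.6 CPM in WT CDK9 cells, at 17.8, 11.7 and 11.5 CPM with the ALK inhibitor and at 29.0, 26.1 and 28.8 CPM in Tyr19Phe cells, with 213 to 858 counts behind each value. The Tyr19Phe libraries lay above all others, and ALK inhibitor replicate 1 lay inside the WT CDK9 range while replicates 2 and 3 lay below it. TGFB2 was 56.7% higher in Tyr19Phe than in WT CDK9 cells (log2 fold change 0.65 ± 0.13, adjusted p = 0.00052 by edgeR) and 104% higher than in inhibitor-treated cells (1.03 ± 0.14, adjusted p = 6.15e-07). With the inhibitor the change against WT CDK9 was -0.38 ± 0.14 (95% interval -0.67 to -0.10, adjusted p = 0.136). That value depended on 1 library, since without ALK inhibitor replicate 1 it was -0.62 with an adjusted p of 0.00628. For the 35 other tested genes within 5 Mb of TGFB2, the log2 fold changes of Tyr19Phe against WT CDK9 cells had a median of 0.06, with 3 called higher and 1 lower.

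Of the receptors, TGFBR2 differed between the groups and TGFBR1 was not called in any comparison. TGFBR2 (ENSG00000163513, chromosome 3, 30606502 to 30694142, plus strand), the ligand-binding type II receptor, was at 91.3, 86.1 and 86.4 CPM in WT CDK9 cells, at 92.9, 89.8 and 90.7 CPM with the inhibitor and at 116, 115 and 128 CPM in Tyr19Phe cells. The Tyr19Phe libraries lay above the other 6, whose groups overlapped. TGFBR2 was 36.1% higher in Tyr19Phe than in WT CDK9 cells (log2 fold change 0.45 ± 0.06, adjusted p = 6.73e-07) and 31.3% higher than in inhibitor-treated cells (0.39 ± 0.06, adjusted p = 4.49e-06). With the inhibitor it changed by 0.05 ± 0.06 (95% interval -0.07 to 0.17, adjusted p = 0.778). For the 28 tested neighbours of TGFBR2 within 5 Mb the corresponding median was -0.0066.

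TGFBR1 (ENSG00000106799, chromosome 9, 99104038 to 99154192, plus strand), the type I receptor kinase, was at 74.7, 79.1 and 76.1 CPM in WT CDK9 cells, at 72.1, 75.7 and 71.7 CPM with the inhibitor and at 69.3, 70.2 and 73.5 CPM in Tyr19Phe cells. The Tyr19Phe libraries lay below the WT CDK9 libraries, and the inhibitor libraries overlapped with both. The TGFBR1 log2 fold changes were -0.07 (95% interval -0.20 to 0.06) with the inhibitor, -0.11 (-0.24 to 0.02) in Tyr19Phe against WT CDK9 cells and -0.04 (-0.17 to 0.09) in Tyr19Phe against inhibitor-treated cells, with adjusted p-values of 0.723, 0.259 and 0.7.

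The transducers had similar CPM. SMAD2 was called in both comparisons of Tyr19Phe cells and SMAD3 in none, and these genes were not tested against each other. SMAD2 (ENSG00000175387, chromosome 18, 47808957 to 47931146, minus strand) was at 143, 138 and 146 CPM in WT CDK9 cells, at 142, 147 and 148 CPM with the inhibitor and at 130, 121 and 124 CPM in Tyr19Phe cells. The Tyr19Phe libraries lay below the other 6. Against WT CDK9 cells SMAD2 decreased by 12.3%, a log2 fold change of -0.19 ± 0.05 with an adjusted p of 0.00762. Without WT CDK9 replicate 3 or Tyr19Phe replicate 2 the adjusted p was 0.053 or 0.0535. Against inhibitor-treated cells the SMAD2 log2 fold change was -0.22 ± 0.05 (adjusted p = 0.00165), and with the inhibitor against WT CDK9 it was 0.03 ± 0.05 (95% interval -0.07 to 0.14).

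SMAD3 (ENSG00000166949, chromosome 15, 67063763 to 67195195, plus strand), the transducer that binds DNA directly, was at 124, 113 and 126 CPM in WT CDK9 cells, at 109, 116 and 120 CPM with the inhibitor and at 127, 112 and 112 CPM in Tyr19Phe cells. The groups overlapped in all 3 comparisons. The SMAD3 log2 fold changes were -0.08 (95% interval -0.20 to 0.05) with the inhibitor, -0.05 (-0.17 to 0.07) in Tyr19Phe against WT CDK9 cells and 0.03 (-0.10 to 0.15) in Tyr19Phe against inhibitor-treated cells, with adjusted p-values of 0.624, 0.641 and 0.807.

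Of the inhibitors of the pathway, SKIL was called in both comparisons of Tyr19Phe cells and SMAD7 in none, and they were not tested against each other. SKIL (ENSG00000136603, chromosome 3, 170357678 to 170396835, plus strand), a corepressor of SMAD complexes, was at 157, 143 and 157 CPM in WT CDK9 cells, at 141, 156 and 159 CPM with the inhibitor and at 117, 113 and 115 CPM in Tyr19Phe cells. All 3 Tyr19Phe libraries lay below the other 6, whose groups overlapped. The SKIL log2 fold change was -0.40 ± 0.05 in Tyr19Phe against WT CDK9 cells (adjusted p = 1.3e-06) and -0.40 ± 0.05 against inhibitor-treated cells (adjusted p = 1.29e-06). By the fitted ratios it decreased by 24.5% and 24.3%. With the inhibitor it was -0.0029 ± 0.05 (95% interval -0.11 to 0.11, adjusted p = 0.994), and the sign of this value changed with the scaling.

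SMAD7 (ENSG00000101665, chromosome 18, 48919853 to 48952052, minus strand), an inhibitory SMAD that blocks the receptor and is a rapid target of the pathway, was at 72.7, 80.1 and 69.3 CPM in WT CDK9 cells, at 81.7, 71.7 and 81.1 CPM with the inhibitor and at 66.8, 70.7 and 69.2 CPM in Tyr19Phe cells. The Tyr19Phe libraries lay below the inhibitor libraries and overlapped with WT CDK9. SMAD7 was not called in any comparison, with log2 fold changes of 0.08 (95% interval -0.06 to 0.22) with the inhibitor, -0.10 (-0.25 to 0.04) in Tyr19Phe against WT CDK9 cells and -0.18 (-0.32 to -0.04) in Tyr19Phe against inhibitor-treated cells. The last of these had an adjusted p of 0.0573, and it passed the threshold without WT CDK9 replicate 2 (0.0496), without ALK inhibitor replicate 2 (0.021) and without ALK inhibitor replicate 2 and Tyr19Phe replicate 3 together (0.0439). SMAD2 and SMAD7 lie on the same chromosome, and each had 34 tested neighbours within 5 Mb, whose median in Tyr19Phe against WT CDK9 cells was -0.05 on the log2 scale.

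TGFBI (ENSG00000120708, chromosome 5, 136028895 to 136063818, plus strand), a secreted matrix protein first described as a TGF-beta induced gene, was the only member called in all 3 comparisons. It was at 804, 839 and 836 CPM in WT CDK9 cells, at 1032, 993 and 996 CPM with the ALK inhibitor and at 931, 920 and 928 CPM in Tyr19Phe cells. No libraries of different groups overlapped, and the order was WT CDK9, Tyr19Phe, ALK inhibitor from the lowest to the highest. TGFBI was 21.9% higher with the inhibitor (log2 fold change 0.29 ± 0.03, adjusted p = 2.56e-07) and 12.1% higher in Tyr19Phe cells (0.16 ± 0.03, adjusted p = 0.000432), both against WT CDK9. Between Tyr19Phe and inhibitor-treated cells the log2 fold change was -0.12 ± 0.03 (adjusted p = 0.00768), a call that was lost without ALK inhibitor replicate 1 (adjusted p = 0.0578). By p-value TGFBI ranked 59 of 16350 genes with the inhibitor.

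**Figure D2:**
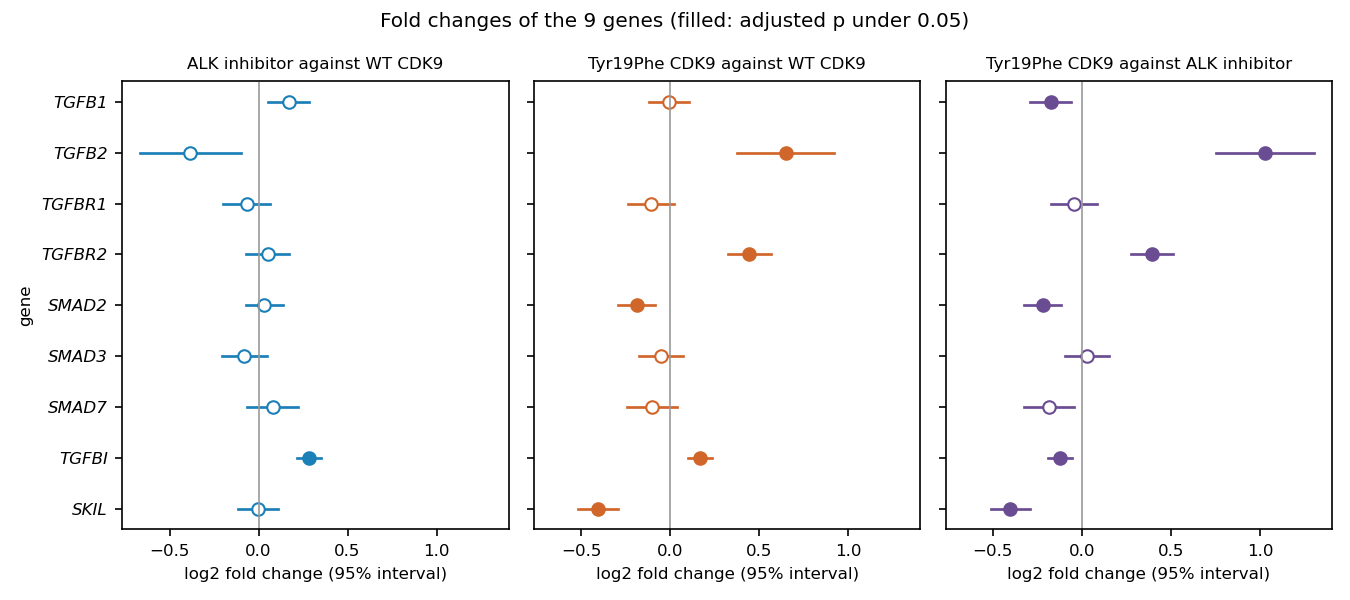
Log2 fold change of each member (points) with its 95% interval (lines) in the 3 comparisons, each against the group named second, with filled points for an adjusted p under 0.05. TGFB2 and TGFBR2 lie to the right and SKIL and SMAD2 to the left in both comparisons of Tyr19Phe cells, and TGFBI is the only filled point with the ALK inhibitor.

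Divided by the gene length listed in the table, the members covered a wide range of levels. TGFBI had 106 ± 2.46, 129 ± 2.75 and 119 ± 0.746 CPM per kilobase in the WT CDK9, ALK inhibitor and Tyr19Phe groups (SD, n = 3), the highest of the 9, followed by TGFB1 with 39.1 ± 1.95, 43.9 ± 0.65 and 38.9 ± 2.86. In WT CDK9 cells SKIL followed at 19.6 ± 1.08 and TGFBR2 at 18.7 ± 0.616 CPM per kilobase, neighbours that lay within their SDs of each other. SMAD7 at 14.7 ± 1.09 and SMAD3 at 13.3 ± 0.773 differed by less than the sum of their SDs, and TGFBR1 was at 11.2 ± 0.333. SMAD2 and TGFB2 were the lowest, at 3.92 ± 0.112 and 3.47 ± 0.321 CPM per kilobase in WT CDK9 cells, a difference close to the sum of their SDs. In Tyr19Phe cells TGFB2 reached 5.43 ± 0.322 CPM per kilobase and stood above SMAD2 at 3.44 ± 0.126, and TGFBR2 at 25.5 ± 1.46 stood above SKIL at 14.8 ± 0.237. With the length of the GENCODE canonical transcript instead, TGFBI and TGFB1 remained the highest and SMAD2 and TGFB2 the lowest, and the order of SKIL, TGFBR2, SMAD7 and SMAD3 changed. The listed lengths of TGFBI, SMAD3 and SMAD7 are 7810, 9113 and 5033 bases against 2712, 6464 and 3341 for the canonical transcripts. SMAD2 has the longest listed length of the members, 36366 bases, and 34626 for the canonical transcript. Before division it was at 143 CPM in WT CDK9 cells, against 17.8 CPM for TGFB2, so its low place per kilobase depends on that length.

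**Figure D3:**
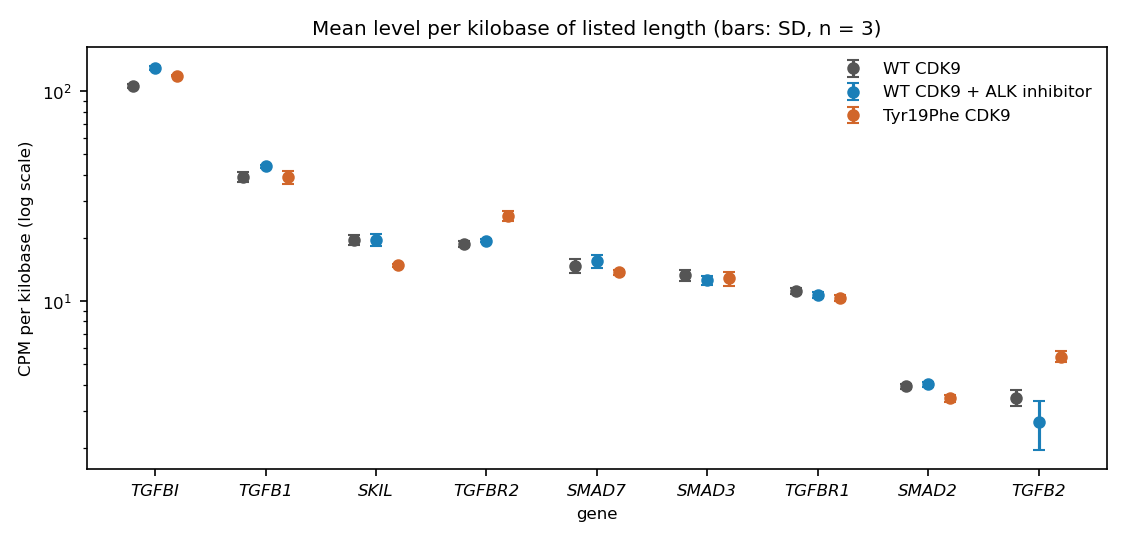
Mean level per kilobase of listed gene length (log axis) of the 9 genes in the 3 groups, with SD bars (n = 3). TGFBI and TGFB1 are the highest in each group. Per kilobase, TGFB2 and SMAD2, the latter divided by 36366 bases, exchange places between WT CDK9 and Tyr19Phe cells.

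The wider pathway was described by 5 lists with 109 genes besides the 9 members, all found in the table and 91 of them tested. With the ALK inhibitor 20 of these (22%) were called higher and 10 (11.0%) lower, beside 1.82% and 2.73% of all tested genes. In Tyr19Phe against WT CDK9 cells 18 (19.8%) were higher and 16 (17.6%) lower, beside 7.61% and 10.4%, and in Tyr19Phe against inhibitor-treated cells 14 (15.4%) were higher and 32 (35.2%) lower, beside 9.57% and 11.1%. Without ALK inhibitor replicate 2 and Tyr19Phe replicate 3, the libraries with fewest genes detected, the last comparison had 11 higher and 18 lower, and the calls over all genes went from 3387 to 2267. The lists were written with earlier results of these data known, and their counts are a description. The lists share some genes, among them THBS1, PMEPA1 and LTBP2. The counts over all lists hold each gene once, and the counts per list below overlap.

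Among 17 tested genes of ligands and of latency, activation and binding of ligands, 3 were called higher and 3 lower with the ALK inhibitor. Their median log2 fold change was 0.12, and of all tested genes 1.82% were called higher and 2.73% lower. LTBP4, LTBP2 and FURIN were higher: LTBP4 and LTBP2 are matrix proteins of the latent TGF-beta binding family and FURIN is the protease that cleaves the ligand precursors. LTBP4 went from 45.3 to 62.8 CPM (log2 fold change 0.47 ± 0.08, adjusted p = 0.000128), and FURIN changed by 0.23 ± 0.05. THBS1, or thrombospondin 1, an activator of latent TGF-beta and itself a target, was lower, at 4095 against 6205 CPM (-0.60 ± 0.03, adjusted p = 3.14e-15). ITGB8, a subunit of an integrin that activates latent TGF-beta, was lower as well (-0.65 ± 0.05), as was BMP4 (-1.05 ± 0.25), from a low level of 4.98 CPM.

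In Tyr19Phe against WT CDK9 cells the same list had 3 genes higher and 4 lower, beside 7.61% and 10.4% of all tested genes. Its median was -0.03. INHBA, which encodes the subunit of activin A, a ligand that also signals through SMAD2 and SMAD3, was at 163 against 77.0 CPM (log2 fold change 1.08 ± 0.06, adjusted p = 8.69e-16). LTBP4 and FURIN were higher by 0.50 ± 0.08 and 0.18 ± 0.05. THBS1 (-0.70 ± 0.03, adjusted p = 1.24e-17), ITGB8 (-0.38 ± 0.05) and BMP2 (-0.45 ± 0.11) were lower. In Tyr19Phe against inhibitor-treated cells 3 were higher and 7 lower, with a median of -0.10, beside 9.57% and 11.1% of all tested genes. INHBA was higher by 1.15 ± 0.06, BMP4 by 1.59 ± 0.25 and ITGB8 by 0.27 ± 0.05, and LTBP2, LTBP1 and THBS1 were lower, with log2 fold changes of -0.55, -0.27 and -0.10. For THBS1 the libraries overlapped, at 3752 to 3898 CPM in Tyr19Phe cells and 3838 to 4286 CPM with the inhibitor. The 53 tested neighbours of INHBA within 5 Mb had a median of 0.11 in this comparison. TGFB3, the remaining TGF-beta isoform, was at 1.02 to 1.84 CPM on average in the groups and was not called in any comparison.

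Of 12 tested receptors of the family beyond TGFBR1 and TGFBR2, 0 were called with the ALK inhibitor. Of all tested genes 1.82% were called higher and 2.73% lower. In Tyr19Phe against WT CDK9 cells 0 of the receptors were called higher and 3 lower, beside 7.61% and 10.4% of all tested genes. All 3 are receptors of bone morphogenetic proteins (BMPs). BMPR2 was at 136 against 180 CPM (log2 fold change -0.41 ± 0.05, adjusted p = 1.23e-06), BMPR1B at 7.52 against 12.5 CPM (-0.73 ± 0.16) and BMPR1A at 91.0 against 109 CPM (-0.26 ± 0.07). For BMPR1A the libraries overlapped, at 84.7 to 101 CPM in Tyr19Phe cells and 99.8 to 118 CPM in WT CDK9 cells. The 16 tested neighbours of BMPR1B within 5 Mb had a median of -0.23 in this comparison, with 0 called higher and 6 lower, and their part in its value was not tested. The same 3 genes were lower against inhibitor-treated cells, with log2 fold changes of -0.43, -0.57 and -0.31. BAMBI, a decoy receptor, was higher by 0.48 ± 0.13. Its 39 tested neighbours within 5 Mb had a median of 0.08, with 7 called higher and 0 lower, and their part in its value was not tested. In that comparison 9.57% of all tested genes were called higher and 11.1% lower. The median of the receptors was 0.01, 0.09 and 0.08 in the 3 comparisons.

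Of 13 tested SMADs and SMAD partners, 0 were called higher and 1 lower with the ALK inhibitor, beside 1.82% and 2.73% of all tested genes. The lower gene was SKI, the corepressor related to SKIL, with a log2 fold change of -0.18 ± 0.05 (adjusted p = 0.0234). In Tyr19Phe against WT CDK9 cells 0 were higher and 3 lower, beside 7.61% and 10.4% of all tested genes. The 3 were CREBBP, a coactivator acetyltransferase (-0.23 ± 0.05), TRIM33, a SMAD-binding ubiquitin ligase (-0.25 ± 0.05), and SMAD1, a transducer of BMP signals (-0.39 ± 0.12). The 30 tested neighbours of SMAD1 within 5 Mb had a median of -0.18, and their part in its value was not tested. Against inhibitor-treated cells 1 was higher and 5 lower, beside 9.57% and 11.1% of all tested genes. SKI was higher by 0.13 ± 0.05, and TRIM33, SMAD9 and TGIF2 were among the lower genes, at -0.25, -0.51 and -0.46. SMAD4, the common partner of SMAD2 and SMAD3, was at 99.6, 107 and 95.4 CPM in the WT CDK9, inhibitor and Tyr19Phe groups and was lower in Tyr19Phe than in inhibitor-treated cells (-0.17 ± 0.06, adjusted p = 0.0272). The median of this list was -0.01, -0.07 and -0.06 in the 3 comparisons.

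Among 14 tested genes for turnover and inhibition of receptors and SMADs, 1 was called higher and 1 lower with the inhibitor. Of all tested genes 1.82% were called higher and 2.73% lower. PMEPA1, a target that sequesters SMAD2 and SMAD3, was at 488 against 391 CPM (log2 fold change 0.32 ± 0.04, adjusted p = 4.07e-07), and the ubiquitin ligase NEDD4L was lower (-0.28 ± 0.06). In Tyr19Phe against WT CDK9 cells FKBP1A, which binds TGFBR1 and holds it inactive, was higher by 0.16 ± 0.04. STRAP (-0.30 ± 0.05), USP9X (-0.19 ± 0.04) and the SMAD phosphatase PPM1A (-0.15 ± 0.06) were lower. Of all tested genes 7.61% were called higher and 10.4% lower in this comparison. The 62 tested neighbours of PPM1A within 5 Mb had a median of -0.16 in this comparison, with 1 called higher and 17 lower. Their part in the value of PPM1A was not tested. Against inhibitor-treated cells 3 genes of the list were higher and 5 lower, beside 9.57% and 11.1% of all tested genes. NEDD4L, SMURF2 and FKBP1A were higher, at 0.29, 0.22 and 0.15, and PMEPA1, PPM1A and ITCH were among the lower, at -0.24, -0.26 and -0.20. The medians were 0.0094, -0.04 and -0.11.

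The longest list held 41 tested target genes. With the ALK inhibitor 18 of them (43.9%) were called higher and 6 (14.6%) lower, beside 1.82% and 2.73% of all tested genes. The median log2 fold change of the targets was 0.29. SNAI2, a transcription factor of epithelial to mesenchymal transition, was at 179 against 113 CPM (0.66 ± 0.06, adjusted p = 6.91e-10), and FN1, the matrix protein fibronectin, was at 3621 against 2944 CPM (0.30 ± 0.04, adjusted p = 4.78e-07). With THBS1, PDGFB, a growth factor, was lower (-0.85 ± 0.09, adjusted p = 5.45e-08), as was CCN2, a matricellular protein listed in the table as CTGF, at 516 against 644 CPM (-0.32 ± 0.05). THBS1 and CCN2 are also known targets of YAP and TAZ, and the genes of this list are shared with other pathways.

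In Tyr19Phe against WT CDK9 cells 14 targets (34.1%) were higher and 5 (12.2%) lower, beside 7.61% and 10.4% of all tested genes. The median of the targets was 0.13. The matrix protease gene MMP2 was at 83.0 against 42.5 CPM (log2 fold change 0.97 ± 0.07, adjusted p = 5.96e-12), CDH2, which encodes N-cadherin, at 268 against 159 CPM (0.75 ± 0.05) and TAGLN, an actin-binding protein, at 569 against 426 CPM (0.42 ± 0.04). Lower were THBS1, the collagen gene COL1A1 at 37.9 against 104 CPM (-1.46 ± 0.09, adjusted p = 1.04e-13) and CCN2 (-0.40 ± 0.05). COL1A1 is also in the fibroblast list, whose summed level was 104 to 107 CPM in WT CDK9 cells, 115 to 150 CPM with the inhibitor and 32.0 to 45.6 CPM in Tyr19Phe cells. The other 6 fibroblast markers were under 1 CPM in all 9 libraries, and a part of fibroblasts in these values was not tested. Epithelial markers moved as well. Of the 8 tested, 2 were higher and 3 lower in Tyr19Phe against WT CDK9 cells: the keratins KRT8 (0.38 ± 0.03) and KRT18 (0.39 ± 0.05) were higher, and KRT19 (-1.24 ± 0.06), the adhesion molecule EPCAM (-0.82 ± 0.13) and the receptor ERBB2 (-0.29 ± 0.03) were lower. With the inhibitor ERBB2 (0.54 ± 0.03) and KRT19 (0.21 ± 0.05) were higher and KRT7 was lower (-0.35 ± 0.03). Their part in the changes of the target genes was not tested.

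Between Tyr19Phe and inhibitor-treated cells 6 targets (14.6%) were higher and 17 (41.5%) lower, beside 9.57% and 11.1% of all tested genes. The median of the targets was -0.18. CDH2, PDGFB and TAGLN were higher, with log2 fold changes of 0.87 ± 0.05, 1.62 ± 0.09 and 0.59 ± 0.04. COL1A1, SNAI2 and LTBP2 were lower, at -1.81 ± 0.09, -0.43 ± 0.06 and -0.55 ± 0.08. PDGFB had 41.8, 23.1 and 71.2 CPM in the WT CDK9, inhibitor and Tyr19Phe groups, and the direct contrast of the latter groups had an adjusted p of 3.29e-15. In this comparison the neighbours of PDGFB and of LTBP2 had medians of the same sign as the gene itself. The 144 tested neighbours of PDGFB within 5 Mb had a median of 0.23, with 50 called higher and 3 lower, and the 90 neighbours of LTBP2 had a median of -0.21, with 0 higher and 25 lower. Against WT CDK9 these medians were 0.23 and -0.17, and that of the 104 neighbours of THBS1 was -0.12. The part of these regions in the values was not tested.

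**Figure D4:**
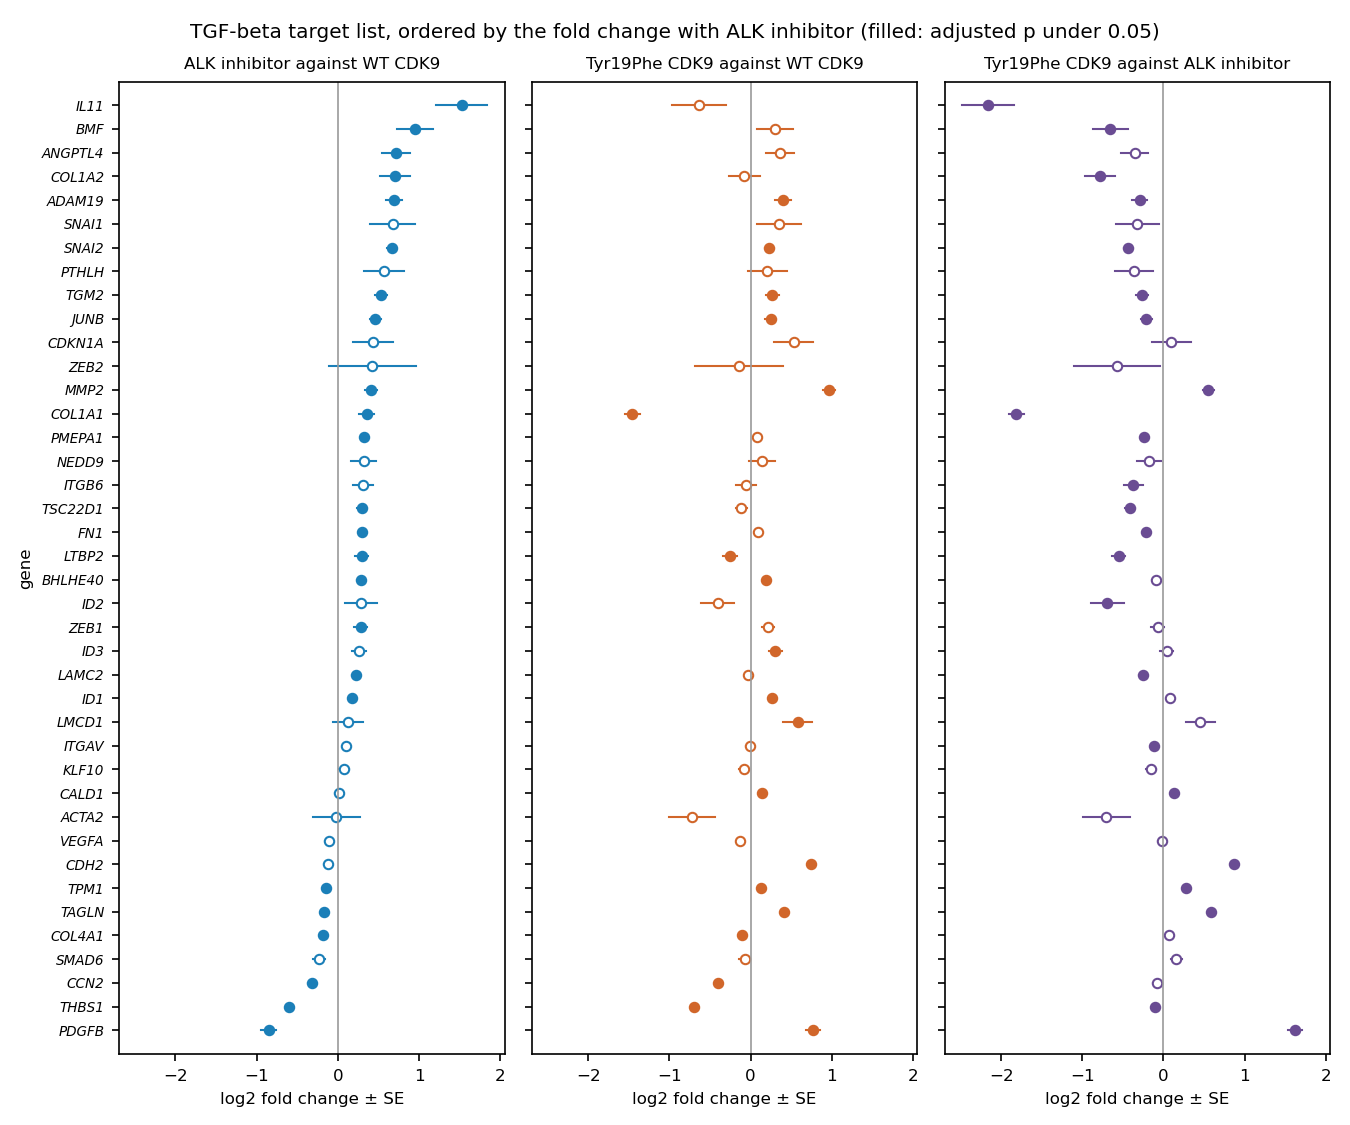
Log2 fold change ± SE of 40 of the 41 tested target genes in the 3 comparisons, ordered by their value with the ALK inhibitor, with filled points for an adjusted p under 0.05. IL11 and BMF are at the top and THBS1 and PDGFB at the bottom of the left panel, where 18 filled points lie right of 0 and 6 left of it. COL1A1 lies at 0.35, -1.46 and -1.81 and PDGFB at -0.85, 0.77 and 1.62 in the 3 panels.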

How the data were processed

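Total RNA of SKOV3 cells was sequenced in 3 groups of 3 libraries, grouped by the deposited labels. The deposited table holds raw counts of reads per gene, without normalization, beside gene length (another deposited quantity, in bases). Per the submitters' processing notes, CASAVA, HISAT2 2.0.5 and featureCounts 1.5.0-p3 were used with GRCh38. The annotation release and strand setting are not given in the sources used here. Positions are those of the table; 58206 of its 58735 identifiers were on the same chromosome within 1 Mb in GENCODE 44.

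The test was that of edgeR 4.0.16 under R 4.3.3 (filterByExpr with a minimum count of 10 and a minimum total of 15, TMM, a quasi-likelihood fit with 1 mean per group over 9 libraries and 6 residual degrees of freedom). Benjamini-Hochberg adjustment ran over the 16350 tested genes of a comparison, and an adjusted p under 0.05 was called. An exact permutation test of 3 against 3 libraries cannot go below 0.1 and was not used. Standard errors are those implied by the fold change and its F statistic. The 95% intervals use the t distribution with edgeR's total degrees of freedom, on which its p-values rest as well. These add prior degrees of freedom, estimated over the tested genes, to the residual ones. CPM were TMM-scaled. A floor of 3 counts corresponded to 0.101 to 0.165 CPM, for counting error only. Libraries of a group differed by more than sampling noise (chi-square per degree of freedom of 4.23 to 8.71), so none was a copy. Same-numbered libraries did not deviate together (correlations of -0.0116 to 0.026), so they were not paired.

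The 9 members, the lists and the alternatives were chosen with earlier results of these data known. Named genes were the members, CDK9, ALK, markers and, per list and comparison, the 3 called genes per direction with the smallest adjusted p. TGFB3, SMAD4, IL11 and BMF lie outside this rule and were chosen after their values were seen, as were HNRNPUL1 and CCDC97 for their overlap. CCN2 was matched as CTGF. The values of 1 target gene are not reported here. The alternatives were 3 other scalings, DESeq2 1.42.0, 2 other filters, protein-coding genes only, a replicate block, only the compared groups, thinning to equal depth, an adjusted p under 0.01 and each library left out. Leaving out ALK inhibitor replicate 2 with Tyr19Phe replicate 3, and the canonical transcript length, were added after the data had been seen. The code was tested on simulated counts; it passed for log2 changes of 1 in genes at 5 CPM or more, after stricter criteria that included smaller changes and lower genes had failed, so small changes and changes of lower genes can be missed. Figures were drawn with matplotlib 3.10.9 in Python 3.11.15.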

Additional observations from a re-analysis of the deposited data

How the results depend on the processing

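Over the 20 alternatives for fold changes, TGFBI in both comparisons against WT CDK9, TGFB2, TGFBR2 and SKIL in both comparisons of Tyr19Phe cells, and SMAD2 against ALK inhibitor-treated cells kept their direction and their call; the calls that other members lost or gained are given beside their values. With the ALK inhibitor, 1 member was called, and 2 were called with library size alone (2 higher); leaving out 1 library gave 1 to 2 members and 491 (without WT CDK9 replicate 1) to 738 of all genes, against 744 with all libraries. In Tyr19Phe against inhibitor-treated cells, 46 pathway genes were called, 27 at an adjusted p under 0.01 and 29 to 46 with libraries left out, the lowest without ALK inhibitor replicate 2 and Tyr19Phe replicate 3, where 2267 of all genes were called. At an adjusted p under 0.01, 427, 1850 and 2088 of all genes were called in the 3 comparisons, against 744, 2940 and 3387. The stricter threshold lowers counts by construction; for the other counts the cause was not tested.

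The values near 0 changed sign. For SKIL with the inhibitor the log2 fold change was 0.0075 with upper quartile scaling, 0.023 with library size alone and -0.045 to 0.054 with libraries left out. For TGFB1 in Tyr19Phe against WT CDK9 cells it was 0.015 with upper quartile scaling, 0.019 with library size alone, 0.00034 with at least 10 counts in every library, 0.0027 with protein-coding genes only and -0.057 to 0.044 with libraries left out. For SMAD3 in Tyr19Phe against inhibitor-treated cells it was -0.040 to 0.068 with libraries left out. The cause was not tested.

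With the replicate block, no member's call changed in the 3 comparisons. The libraries of a block share only a number. Where a left-out library left 2 in a group, the spread was shared with the other groups. Within 2 Mb instead of 5 Mb, the neighbours of TGFB2 had a median of -0.11 in Tyr19Phe against WT CDK9 cells. For TGFBR2, SMAD2 and SMAD7 the 2 Mb medians were -0.11, -0.07 and 0.08, so these medians depended on the window. Among the members TGFB2 had the fewest counts, 213 to 858 per library, and low list genes rest on fewer, such as BMP4 with 26 to 248 and TGFB3 with 15 to 54.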
